A study of Oryza sativa Japonica Group with 3 samples.

Results

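The genes described here encode RING finger proteins, a large family of zinc-binding proteins, and were taken from an RNA sequencing table of rice root tips. A gene counted as a RING finger gene when its description in the table names a RING finger or RING-type domain, the combined RING/FYVE/PHD type included, and neither an F-box nor a CCCH domain. Among 35664 genes, 324 carried such a description, and 221 of them were selected because the larger of their mean levels in the 2 RNA pools was 5 RPKM or more. RPKM is the number of reads on a gene, scaled to the length of the gene and to the depth of the library. The selection used these levels, so the levels are given as a description.

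Both pools came from root tips 1 cm long of rice seedlings 7 days old, cultivar Nipponbare. The sample titles call both pools a control. The nuclear RNA pool was RNA of nuclei purified from the line p35S:OsNTF2, whose tag labels nuclei, grown on medium of 0.5-fold strength per the labels, with ribosomal RNA degraded before sequencing. The poly(A) RNA pool was cellular RNA caught on oligo(dT) from the line p35S:HF-FLAG-OsRPL18, which carries a tagged ribosomal protein, grown on medium of 1-fold strength per the labels. Both transgenes are driven by the 35S promoter of a plant virus, which is active in most plant cells, and the series text gives a single medium strength. The study asked how RNA in the nucleus differs from the polyadenylated RNA of the whole cell. RNA pool, plant line, RNA selection and medium changed together and cannot be told apart, and fewer cells of a type and less RNA per cell cannot be told apart in such bulk samples.

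Ubiquitin is a small protein that marks other proteins, often for destruction by the proteasome. An activating enzyme (E1) passes it to a conjugating enzyme (E2), and a ligase (E3) brings the E2 and the target protein together. RING finger proteins are the most numerous E3 ligases of plants, where they take part in hormone signalling, light responses, defence and growth, and the RING domain itself is a zinc-binding fold that docks the E2.

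According to the series text each pool had 4 biological replicates, and the p-values assume this. Reads on the listed genes numbered 1072511 to 2287770 per nuclear library and 19411234 to 29943165 per poly(A) library. For a gene of 1 kb a single read was therefore worth 0.436 to 0.930 RPKM in nuclear libraries and 0.0333 to 0.0514 RPKM in poly(A) libraries. The root genes RCc3 (OS02G0662000), at 698 ± 138 RPKM in nuclear and 1799 ± 134 RPKM in poly(A) RNA, and LSI1 (OS02G0745100), at 69.3 ± 15.4 and 213.5 ± 25.8 RPKM in the same order, were present in both pools. The root genes SHR1 (OS07G0586900), at 34.4 ± 7.59 and 7.065 ± 0.474 RPKM, and SCR1 (OS11G0124300), at 13.1 ± 2.12 and 2.69 ± 0.301 RPKM, leaned the other way. QHB (OS01G0854500) was low in both pools, at 1.245 ± 1.83 and 2.03 ± 0.434 RPKM. The shoot meristem gene OSH1 was at 0 in all libraries, and RBCS, for the small subunit of Rubisco, was at 0 in nuclear RNA and at a mean of 0.0705 RPKM in poly(A) RNA. The 17 genes described as chlorophyll a/b binding, of which 3 were at 0 in all libraries, summed to 39.2 to 63.8 RPKM in nuclear libraries and 17.5 to 29.9 RPKM in poly(A) libraries. Their part in the differences below was not tested. Each level given as a mean with its SD is in RPKM (n = 4 libraries), and differences are nuclear minus poly(A) on the log2(RPKM + 1) scale, with their standard error.

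RING finger genes were found on both sides of the comparison. By limma, fitted over 26928 genes, 84 of the 221 (38.0%) were higher in nuclear RNA, 64 (29.0%) were lower and 73 were not called at an adjusted p under 0.05. Among all tested genes 33.1% were higher and 30.0% lower, and among all genes with a larger pool mean of 5 RPKM or more 36.7% were higher and 35.0% lower. The share of RING finger genes called higher was thus near these backgrounds. Their median difference was 0.20 on the log2 scale, against 0.08 for all tested genes and 0.02 for all genes of that level, and single differences ran from −3.19 to 5.91. At least 2-fold, 69 were higher and 38 lower, and at least 4-fold 19 were higher and 6 lower. Among all 20300 genes of that level, 5244 were higher and 5066 lower at least 2-fold. No count over all genes is given at 4-fold, so the counts at 4-fold have no background and support nothing. For 143 RING finger genes (64.7%) every library of one pool lay above every library of the other, against 70.9% of all genes of that level.

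**Figure D1:**
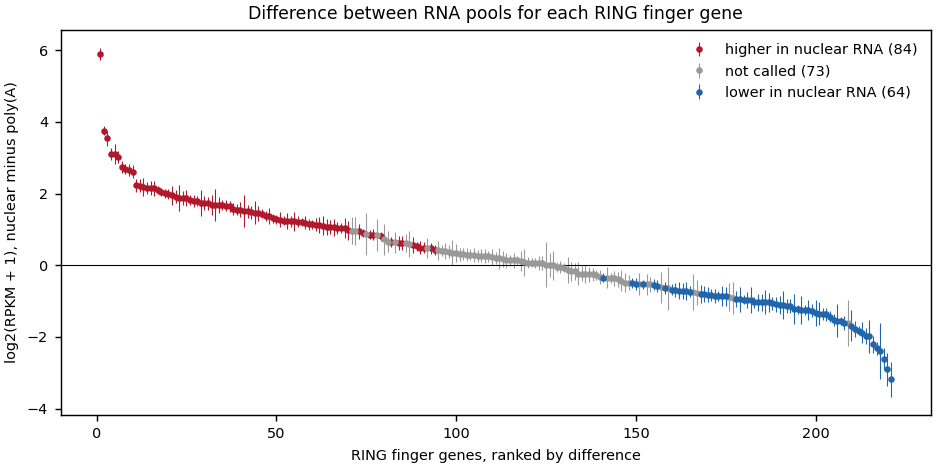
Difference between nuclear and poly(A) RNA (y axis, log2(RPKM + 1)) for each of the 221 RING finger genes, ranked on the x axis; points are estimates, bars are standard errors and colours give the call. The 84 genes called higher in nuclear RNA reach 5.91 and the 64 called lower reach −3.19.

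The level at which a gene was selected bears on its direction. A level of 5 RPKM was reached in both pools by 158 of the 221, of which 52 (32.9%) were higher in nuclear RNA and 46 (29.1%) lower, with a median of 0.14. Among all genes with 5 RPKM or more in both pools, 29.9% were higher and 37.0% lower, with a median of −0.15. The level was reached in nuclear RNA alone by 40 RING finger genes, of which 32 were called higher and 0 lower, and in poly(A) RNA alone by 23, of which 0 were called higher and 18 lower. Their choice goes far to fix these directions, so these counts support nothing, and such genes are described below by their values and without a p. Had a poly(A) mean of 5 RPKM been asked for, 52 of 181 would be higher and 64 lower, with a median of −0.13. The sign of the median thus changed when the level was set on poly(A) RNA. The shares of all genes with that poly(A) mean are not given here, so these counts have no background.

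The scaling of the libraries moves the balance. Genes called higher made up 56.8% of the called RING finger genes, against 69.9% once the RPKM of every library were brought to an equal sum, 70.9% when the 100 highest genes were left out of that sum and 51.7% after median centring. The median of the RING finger genes was 0.44, 0.48 and 0.04 under these settings, and that of all tested genes 0.30, 0.33 and −0.08. RING finger genes therefore kept a median above that of all tested genes under these scalings. In every alternative run, 73 of the 84 stayed called higher and 40 of the 64 stayed called lower.

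The members with the largest positive differences are described only by a RING-type or RING/FYVE/PHD-type domain, except 1 ATL gene. Of the 8 largest, 5 reached 5 RPKM in nuclear RNA alone and had to lean that way: OS02G0192300, OS05G0526600, OS12G0161100, OS03G0391100 and OS02G0743700. OS02G0192300, of the RING/FYVE/PHD type, had 107.1, 120.3, 118.1 and 152.5 RPKM in nuclear libraries (replicates 1 to 4), against 1.20, 1.19, 1.31 and 0.667 RPKM in poly(A) libraries. OS04G0402500, of the RING type, had 96.1, 103.6, 106.4 and 116.4 RPKM in nuclear libraries, against 7.64, 6.16, 6.38 and 7.42 RPKM in poly(A) libraries. Every nuclear library of either gene lay far above every poly(A) library. The difference was 5.91 ± 0.17 for OS02G0192300 (59.9-fold on this scale) and 3.76 ± 0.13 for OS04G0402500 (13.5-fold, adjusted p = 3.22e-07). In reads, the first rested on 933 nuclear and 145 poly(A) reads over 4 libraries each, although poly(A) libraries were far deeper.

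OS05G0526600 had 22.8, 22.9, 23.1 and 35.1 RPKM in nuclear libraries, against 1.26, 1.70, 1.604 and 0.703 RPKM in poly(A) libraries. OS12G0161100 had 16.1, 6.60, 9.79 and 17.6 RPKM in nuclear libraries, against 0.378, 0.389, 0.634 and 0.500 RPKM in poly(A) libraries, the lowest poly(A) mean of all 221. The pools of either gene were well apart. The differences were 3.54 ± 0.21 and 3.11 ± 0.28. OS06G0695900 stood at 81.3 ± 14.1 RPKM in nuclear and 8.45 ± 1.31 RPKM in poly(A) RNA, and OS11G0542100 at 128.4 ± 25.9 RPKM in nuclear and 14.8 ± 1.48 RPKM in poly(A) RNA. These 2 RING-type genes were 8.67-fold and 8.10-fold higher in nuclear RNA on the log2(RPKM + 1) scale. OS03G0391100, of the RING type, and OS02G0743700, similar to the RING-H2 finger protein ATL1Q, complete the 8 largest, at 2.74 ± 0.17 and 2.69 ± 0.15.

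The members with the largest negative differences were low in nuclear RNA and so rested on few nuclear reads. Of the 8 described, 5 reached 5 RPKM in poly(A) RNA alone and had to lean that way: OS02G0735900, OS01G0673900, OS03G0302700, OS12G0580700 and OS06G0677300. OS02G0735900, of the RING/FYVE/PHD type, had 4.94, 3.04, 3.53 and 0 RPKM in nuclear libraries, against 27.1, 27.6, 30.8 and 28.3 RPKM in poly(A) libraries. OS01G0673900 was at 0 in nuclear libraries 1, 3 and 4 and at 3.34 RPKM in library 2, against 8.93, 10.0, 10.2 and 10.0 RPKM in poly(A) libraries. OS03G0302700 had 0.729, 0, 1.57 and 0 RPKM in nuclear libraries, against 7.95, 7.09, 8.40 and 8.33 RPKM in poly(A) libraries. The pools did not overlap for any of these genes, which had 16, 5 and 3 nuclear reads in all. The differences were −3.19 ± 0.50, −2.90 ± 0.46 and −2.62 ± 0.30.

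Better measured among the lower members was OS09G0525400, similar to RING finger protein 13, an E3 ligase of endosomal membranes in animals. It had 8.28, 6.19, 7.63 and 4.66 RPKM in nuclear libraries, against 35.9, 36.5, 37.0 and 37.7 RPKM in poly(A) libraries. All nuclear libraries lay well below the poly(A) range, and the difference was −2.32 ± 0.17 (5.00-fold lower, adjusted p = 8.08e-06). A second gene described as similar to RING finger protein 13, OS08G0104300, was lower by less, at 5.74 ± 0.737 RPKM in nuclear and 8.45 ± 0.431 RPKM in poly(A) RNA (−0.49 ± 0.13, adjusted p = 0.00934). OS01G0887700 (−2.21 ± 0.24), OS12G0580700 (similar to ATL2N, −1.98 ± 0.46), OS06G0677300 (−1.98 ± 0.22) and OS01G0894600 (−1.88 ± 0.29) complete the 8 largest negative differences among members whose pools did not overlap. OS04G0243700, named after its values were seen because its pools overlapped, also reached the level in poly(A) RNA alone and stood at −2.40, or at −3.25 without nuclear replicate 2.

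**Figure D2:**
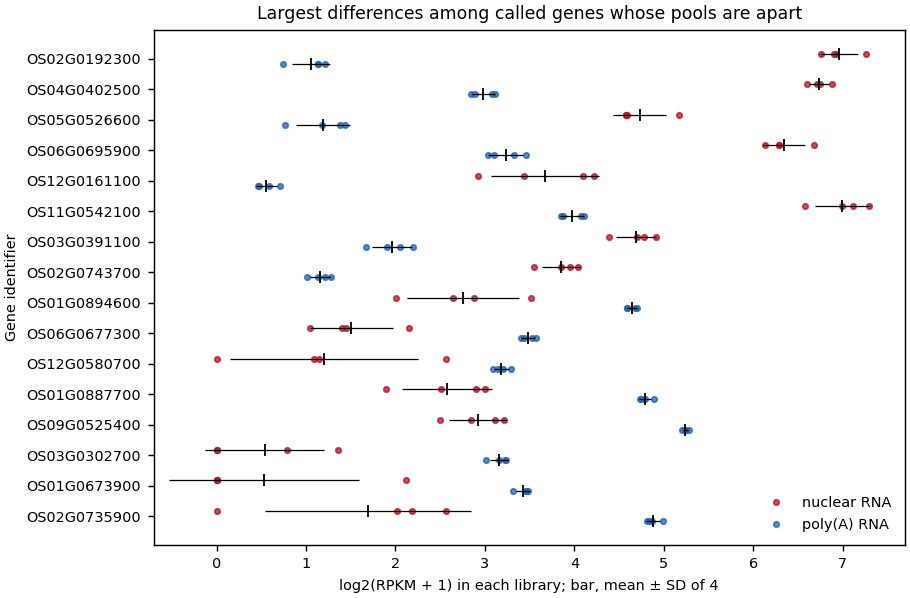
log2(RPKM + 1) in each library (x axis) of the 8 largest positive and the 8 largest negative differences among called RING finger genes chosen to have pools that do not overlap, with nuclear RNA (red) above poly(A) RNA (blue) in each row and the mean ± SD of 4 libraries in black. OS04G0243700 (−2.40) is left out because its pools overlap, and nuclear libraries at 0 are seen for OS02G0735900, OS01G0673900, OS03G0302700 and OS12G0580700.

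The most abundant members differed between the pools. OS09G0478600, of the RING/FYVE/PHD type, was highest in both, at 234.9, 222.6, 233.6 and 245.8 RPKM in nuclear libraries and 57.0, 54.2, 58.0 and 55.9 RPKM in poly(A) libraries. It was 4.11-fold higher in nuclear RNA (2.04 ± 0.11, adjusted p = 1.97e-06). Below it in nuclear RNA followed OS11G0542100, OS02G0192300, OS04G0403200, OS04G0402500 and OS04G0686000. OS04G0403200 stood at 107.7 ± 19.2 RPKM in nuclear and 30.0 ± 2.67 RPKM in poly(A) RNA, and OS04G0686000 at 87.4 ± 18.5 RPKM in nuclear and 18.4 ± 0.839 RPKM in poly(A) RNA. All of the 10 highest in nuclear RNA were called higher there. They were picked by their nuclear level, which favours that direction, so this count supports nothing. Those ranked 2 to 5 in nuclear RNA, from 128.4 ± 25.9 to 105.6 ± 8.40 RPKM, did not differ beyond their spread.

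In poly(A) RNA, OS09G0478600 at 56.3 ± 1.63 RPKM and OS04G0568900, similar to RING finger protein 6, at 56.2 ± 1.95 RPKM could not be ranked within their spread. OS04G0568900 had 46.0, 53.7, 39.0 and 49.1 RPKM in nuclear libraries, against 57.7, 57.1, 53.4 and 56.7 RPKM in poly(A) libraries, with ranges that overlap slightly, and was not called (−0.26 ± 0.13, adjusted p = 0.118). The next were OS11G0604600, at 18.8 ± 3.66 RPKM in nuclear and 52.1 ± 1.81 RPKM in poly(A) RNA, OS08G0157400, OS07G0618600 and OS11G0572500. OS08G0157400 was called higher in nuclear RNA by a small margin, at 65.1 ± 9.63 RPKM in nuclear and 47.9 ± 2.67 RPKM in poly(A) RNA (0.42 ± 0.15, adjusted p = 0.0307). That call was lost under 10 of the 20 alternatives, where its adjusted p reached 0.128, and its pools overlapped by 1 library. OS07G0618600, at 17.6 ± 3.78 RPKM in nuclear and 46.5 ± 3.26 RPKM in poly(A) RNA, and OS11G0572500, at 14.3 ± 3.94 RPKM in nuclear and 44.7 ± 2.00 RPKM in poly(A) RNA, were 2.59-fold and 3.06-fold lower in nuclear RNA on the same log scale. Of the 10 highest in poly(A) RNA 7 were called lower and 2 higher, and 2 genes were among the 10 highest of both pools. Ranking by poly(A) level likewise favours genes lower in nuclear RNA, so these calls support nothing. The 10 highest took 25.1% of the members' summed RPKM in nuclear RNA and 16.0% in poly(A) RNA. Across the 221 members the rank correlation of mean levels between the pools was 0.33 (Spearman's rho), against 0.50 across all 20300 genes of that level. All members took 0.675 to 0.712% of the reads of nuclear libraries and 0.513 to 0.523% of those of poly(A) libraries.

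Some well expressed members had nearly equal levels in the pools. OS03G0818300 had 31.8, 41.0, 39.3 and 41.8 RPKM in nuclear libraries, against 41.7, 37.7, 40.3 and 39.0 RPKM in poly(A) libraries, and the ranges overlapped. Among the 50 members with the highest mean it was the closest to 0, at −0.05 ± 0.13 (adjusted p = 0.755). OS08G0421900, OS03G0812200 and OS03G0427900 followed, at −0.05 ± 0.17, 0.06 ± 0.15 and −0.07 ± 0.13.

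**Figure D3:**
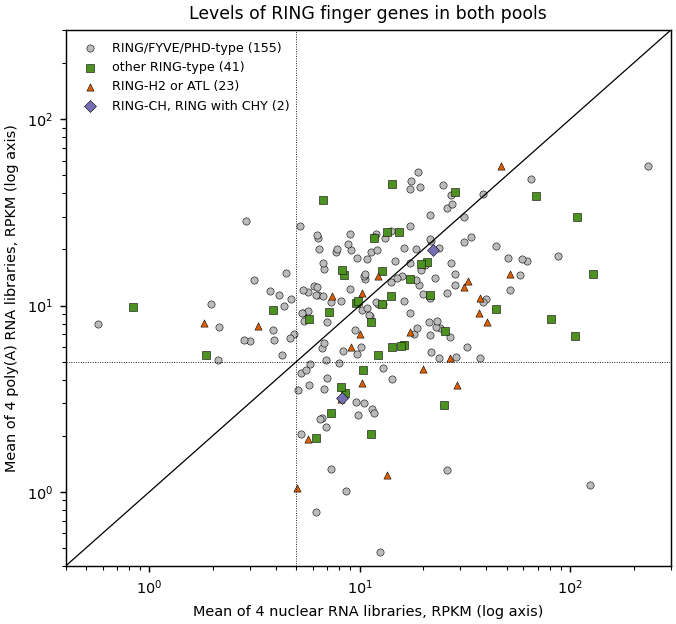
Mean RPKM over 4 libraries in nuclear RNA (x axis, log scale) and poly(A) RNA (y axis, log scale) of the 221 RING finger genes by the wording of their description; the solid line marks equal levels and the dotted lines the level of 5 RPKM used to choose members. Most RING-H2 or ATL genes lie below the line, that is, higher in nuclear RNA.

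RING-H2 proteins carry a RING domain in which a histidine replaces one of the zinc-binding cysteines, and ATL proteins are a plant family of membrane-anchored RING-H2 ligases known from defence and nutrient responses in Arabidopsis. Of the 23 members described as RING-H2 or ATL, 15 were higher in nuclear RNA, 3 were lower and 5 were not called, with a median of 1.19. The shares were 65.2% higher and 13.0% lower, against 36.7% and 35.0% of all genes of that level, but 7 of the 23 were under 5 RPKM in poly(A) RNA and so had to lean to nuclear RNA. Of the 14 with 5 RPKM or more in both pools, 8 were higher (57.1%) and 1 was lower (7.14%), against 29.9% and 37.0% of all such genes, with a median of 1.16. Over the 20 alternatives 15 to 16 of the 23 were higher and 2 to 4 lower, with medians from 1.03 to 1.47. The grouping uses only words of the description, and no test was made of it as a group.

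OS09G0376700, described as an ATL family protein with a RING-H2 motif, had 32.6, 27.6, 25.3 and 30.2 RPKM in nuclear libraries, against 4.63, 3.65, 4.21 and 2.57 RPKM in poly(A) libraries. Its nuclear libraries all lay above its poly(A) libraries, and the difference was 2.67 ± 0.17. It reached 5 RPKM in nuclear RNA alone. OS09G0468800, similar to ATL5F, had 47.6, 26.7, 43.3 and 44.3 RPKM in nuclear libraries, against 8.44, 8.48, 7.59 and 7.95 RPKM in poly(A) libraries. The lowest nuclear library of OS09G0468800 still stood well above its poly(A) range (2.15 ± 0.19, adjusted p = 2.14e-05). All 4 genes described as similar to ATL8 were higher, OS06G0192800 by 2.15 ± 0.21, OS06G0167200 by 1.87 ± 0.19, OS06G0233200 by 1.73 ± 0.18 and OS02G0790600 by 1.23 ± 0.15. OS06G0233200 was the most abundant of them, at 51.9 ± 11.2 RPKM in nuclear and 14.7 ± 0.578 RPKM in poly(A) RNA. Reads of near-identical copies may be shared among such genes, since the counting rule is not given in the sources used here. These ATL genes were named after their values were seen.

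Of the 23, 8 were not called higher. Besides OS12G0580700, the lower genes were OS04G0511600, similar to ATL3G, at 7.41 ± 2.11 RPKM in nuclear and 11.3 ± 0.290 RPKM in poly(A) RNA, and OS01G0926200, similar to RHF1a, an E3 ligase of gamete formation in Arabidopsis, at 3.30 ± 1.40 RPKM in nuclear and 7.79 ± 0.435 RPKM in poly(A) RNA. The difference was −0.58 ± 0.18 for OS04G0511600 (adjusted p = 0.0197) and −1.10 ± 0.25 for OS01G0926200, which reached 5 RPKM in poly(A) RNA alone. The 5 genes not called, OS01G0822800, OS02G0557300, OS04G0568900, OS04G0590900 and OS11G0629300, had differences from −0.26 to 0.41.

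**Figure D4:**
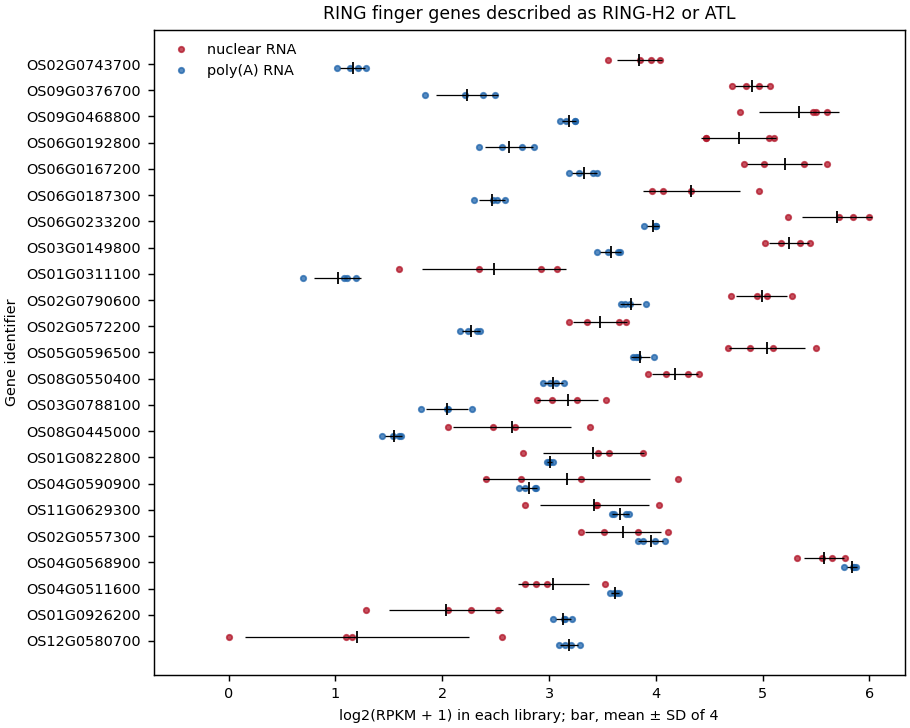
log2(RPKM + 1) in each library (x axis) of the 23 RING finger genes described as RING-H2 or ATL, ordered by difference, with nuclear RNA (red) above poly(A) RNA (blue) in each row and the mean ± SD of 4 libraries in black. The 15 genes called higher in nuclear RNA hold the upper rows, and the 3 genes called lower hold the lowest rows.

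The largest wording class was RING/FYVE/PHD-type, with 155 members (70.1%). It names a fold family that also takes in FYVE and PHD domains, which are zinc-binding but need not be ubiquitin ligases, so the label RING finger holds for these genes only as far as their description goes. Of the 155, 52 were higher (33.5%) and 50 lower (32.3%) in nuclear RNA. Their median of 0.06 changed sign with the scaling (−0.10 to 0.33 over the alternatives). Of the 41 members of other RING types, 16 were higher (39.0%) and 11 lower (26.8%), with a median of 0.29. Among all genes with a larger pool mean of 5 RPKM or more, 36.7% were higher and 35.0% lower, with a median of 0.015. The share called higher in either class was thus near that background. Without the RING/FYVE/PHD class, 32 of 66 were higher (48.5%) and 14 lower (21.2%), with a median of 0.85. With 5 RPKM or more in both pools, 19 of 46 of these were higher (41.3%) and 10 lower (21.7%), with a median of 0.32, against 29.9% and 37.0% of all such genes. The only RING-CH gene, OS08G0100400, reached the level in nuclear RNA alone, at 8.27 ± 1.13 RPKM in nuclear and 3.18 ± 0.144 RPKM in poly(A) RNA, and its difference of 1.14 shrank to 0.23 with the length trend taken off. OS01G0719100, with a CHY zinc finger beside its RING, was not called, at 22.2 ± 6.10 RPKM in nuclear and 20.0 ± 4.03 RPKM in poly(A) RNA.

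Only 8 members carry a gene symbol in the table. GW2 (OS02G0244100), a RING-type ligase that restricts grain width, had 7.39, 13.2, 12.5 and 6.13 RPKM in nuclear libraries, against 10.8, 10.9, 10.2 and 10.7 RPKM in poly(A) libraries. Its nuclear libraries lay on both sides of the poly(A) range, and it was not called (−0.17 ± 0.24, adjusted p = 0.55). The other 7 were named for their symbols after their values were seen, except EHD3, which the naming rule also took. HTAS (OS09G0323100), a RING ligase of heat tolerance, had 5.31, 4.14, 4.18 and 4.19 RPKM in nuclear libraries, against 14.8, 15.8, 14.6 and 14.8 RPKM in poly(A) libraries. Its nuclear libraries all lay below the poly(A) range (−1.56 ± 0.12), and it reached 5 RPKM in poly(A) RNA alone. RDCP1 (OS04G0530500), of drought responses, stood at 18.5 ± 7.68 RPKM in nuclear and 20.2 ± 0.225 RPKM in poly(A) RNA, and RDCP5 (OS12G0636000) at 12.0 ± 8.17 RPKM in nuclear and 19.8 ± 0.851 RPKM in poly(A) RNA. Neither was called, and in both the nuclear libraries spread widely.

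Other symbols name proteins that are not known as RING ligases. EHD3 (OS08G0105000), a PHD finger regulator that promotes flowering, stood at 2.12 ± 1.13 RPKM in nuclear and 5.13 ± 0.397 RPKM in poly(A) RNA (−1.03 ± 0.23), the only pool in which it reached the level. HAC701 (OS01G0246100), a histone acetyltransferase, stood at 6.65 ± 1.35 RPKM in nuclear and 5.90 ± 0.466 RPKM in poly(A) RNA and was not called. C3H15 (OS02G0301000) and C3H41 (OS06G0318700) have symbols of the CCCH zinc finger family although their descriptions name RING/FYVE/PHD alone. C3H15 was higher in nuclear RNA (21.3 ± 6.36 RPKM, against 8.16 ± 0.783 RPKM in poly(A) RNA, adjusted p = 0.00174), and C3H41 was not called (adjusted p = 0.148).

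Some RING proteins are known as subunits of large ligase complexes. APC11 (OS07G0411200), the RING subunit of the anaphase-promoting complex that drives exit from mitosis, had 5.70, 8.78, 1.02 and 0 RPKM in nuclear libraries, against 9.17, 8.28, 10.8 and 9.42 RPKM in poly(A) libraries. APC11 reached 5 RPKM in poly(A) RNA alone and was not called (−1.61 ± 0.65). Its nuclear values ranged from 0 into the poly(A) range, and without nuclear replicate 4 it stood at −1.02. OS01G0106800, similar to RING-box protein 1A, the RING subunit of cullin ligases, falls outside the 221 because its description words RING otherwise. It had 6.88, 37.5, 32.7 and 31.0 RPKM in nuclear libraries, against 121.3, 122.2, 129.8 and 132.0 RPKM in poly(A) libraries (−2.41 ± 0.47, adjusted p = 0.00194). The poly(A) libraries lay far above all nuclear ones. Of 4 genes with RING in such other wording all 4 were lower, the others being OS04G0648800, OS05G0497600 and OS11G0600700 with differences of −0.63, −1.09 and −0.86. These genes were named after their values were seen.

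Genes of the other steps of ubiquitin transfer were set beside the RING finger genes by words of their descriptions, counting genes that passed the filter on low levels. The shares to read these counts against are those of all tested genes, 33.1% higher and 30.0% lower. Of 13 ubiquitin genes, 11 were lower in nuclear RNA and 1 was higher, with a median of −1.39. OS01G0328400, described as ubiquitin, stood at 262.3 ± 50.5 RPKM in nuclear and 819.7 ± 18.2 RPKM in poly(A) RNA (−1.66 ± 0.16, adjusted p = 2.92e-05). The single higher gene, OS03G0259300, is described as an Hrd3 homologue of protein quality control and not as ubiquitin itself. Of 6 genes for activating enzymes, 1 was higher and 2 lower, with a median of 0.00. Of 27 genes with conjugating enzyme in their description, 16 were lower and 4 higher, with a median of −1.07, and 1 of the higher, OS02G0130900 (0.68), is described as a protein that binds a conjugating enzyme. Among them OS01G0658400 stood at 30.0 ± 8.12 RPKM in nuclear and 270.1 ± 21.96 RPKM in poly(A) RNA, and OS03G0679300 at 20.7 ± 2.59 RPKM in nuclear and 2.09 ± 0.187 RPKM in poly(A) RNA.

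Among other ligases, U-box proteins, which dock the E2 by a fold similar to the RING without zinc, had 3 of 9 genes higher and 2 lower (median 0.31). HECT ligases, which take ubiquitin over from the E2, had 0 of 3 higher and 1 lower (median −0.41). Of 10 genes with cullin in their description, 7 were lower and 1 was higher (median −0.98). Among the lower, OS06G0233400 (−3.21) and OS07G0631000 (−2.78) are described by a domain of cullin neddylation and not as cullins. The cullin 1 gene OS01G0369000, the scaffold of F-box ligases, stood at 16.4 ± 0.717 RPKM in nuclear and 66.8 ± 2.72 RPKM in poly(A) RNA, and the higher gene, OS06G0154200, is an F-box component rather than a cullin. Of 11 genes similar to SKP1, the adaptor between cullin and F-box protein, 3 passed the filter and were lower (median −1.56), and 2 of them with a pseudocount of 0.1. Of 34 BTB/POZ genes, which include adaptors of cullin 3 ligases, 12 were higher and 6 lower (median 0.47). Of 4 genes of the anaphase-promoting complex, APC11 among them, 1 was higher and 1 lower (median −0.25). Deubiquitinases, which remove ubiquitin, had 17 of 61 genes higher and 22 lower (median −0.06).

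Over the alternatives the medians stayed negative for ubiquitin genes (−1.57 to −1.10), conjugating enzymes (−1.51 to −0.79), genes with cullin in their description (−1.28 to −0.73), SKP1-like genes (−1.72 to −1.26), HECT ligases and the anaphase-promoting complex. The medians of activating enzymes, U-box proteins and deubiquitinases changed sign. No difference between these lists and the RING finger genes was tested.

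**Figure D5:**
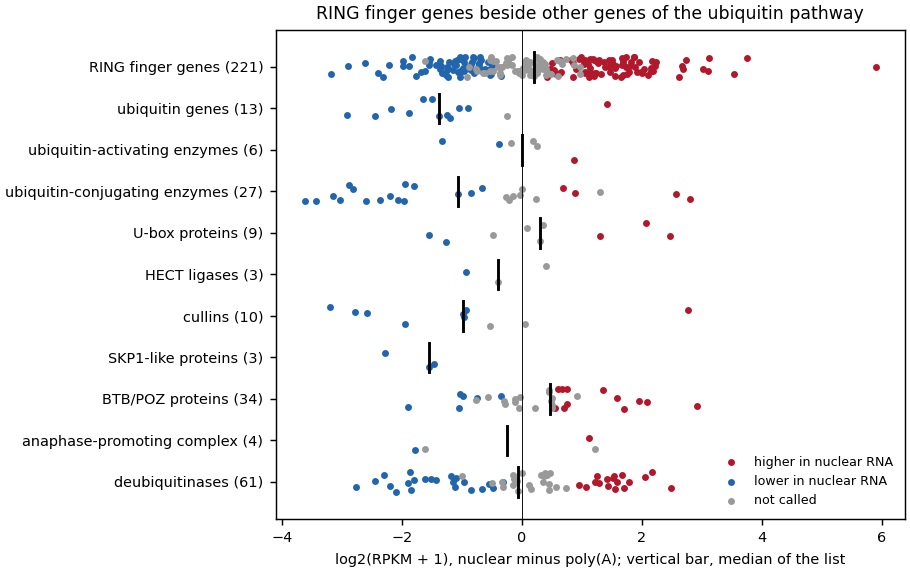
Difference between nuclear and poly(A) RNA (x axis, log2(RPKM + 1)) of each tested gene of 10 ubiquitin pathway lists (rows), below the 221 RING finger genes; colours give the call and the vertical bar is the median of the list. The median is 0.20 for RING finger genes, −1.39 for ubiquitin genes and −1.07 for conjugating enzymes.

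The length of a gene was followed because it moves with the difference across the table. Lengths recovered from the RPKM values, which are those used in counting, had a median of 1490 nt for RING finger genes and 1511 nt for all genes of that level. Over all genes of that level Spearman's rho of length and difference was 0.21, against −0.10 over the RING finger genes. The 29 RING finger genes below the lower quartile of length had a median difference of 0.73, against −0.53 for all genes of that length and level. The 84 in the next quartile had 0.42 (all genes −0.23), the 54 in the third −0.50 (all genes 0.07) and the 54 longest 0.27 (all genes 0.40). These correlations are across genes, which share libraries and are not independent replicates. With the length trend taken off, 87 RING finger genes were higher and 64 lower.

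The spread between libraries was that of other genes. The median coefficient of variation was 27.6% over nuclear libraries and 7.18% over poly(A) libraries for RING finger genes, against 27.9% and 7.38% for all genes of that level. Over 4 nuclear libraries the RING finger genes had a median of 124 reads and the lowest had 3, while the lowest had 67 reads in poly(A) RNA. Under 20 nuclear reads were found for 6 of them, and 8 had 0 reads in some nuclear library.

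At the level of 5 RPKM, the members just inside were OS01G0311100 (5.04 ± 2.47 RPKM in nuclear and 1.05 ± 0.295 RPKM in poly(A) RNA), OS03G0304400 (5.06 ± 1.19 and 3.53 ± 0.357 RPKM in the same order) and EHD3. Just outside lay OS10G0566400 (4.93 ± 2.50 and 0.614 ± 0.192 RPKM), OS12G0140600 (3.69 ± 3.70 and 4.89 ± 0.336 RPKM) and OS02G0686100 (4.78 ± 4.15 and 1.29 ± 0.332 RPKM). The larger mean of each gene lay within its SD of the level of 5 RPKM, so membership at this edge is uncertain. Of the 57 tested RING finger genes under the level, 13 (22.8%) were higher and 5 (8.77%) lower. Among all tested genes 33.1% were higher and 30.0% lower, but most of those are above the level. The shares of all tested genes under the level are not given here. The counts under the level therefore have no like background and support nothing.

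By identifier, 55 members fell into 25 runs of neighbours with numbers at most 4000 apart on one chromosome. In 12 runs all differences were positive, in 2 all were negative and in 11 both signs occurred. Runs of other genes were not counted beside them. The longest run was on chromosome 6, with OS06G0534800, OS06G0535200, OS06G0536600 and OS06G0537600 at 1.06 ± 0.24, 1.52, 0.94 ± 0.21 and 0.73, of which the first 3 were called higher. Those 3 reached 5 RPKM in nuclear RNA alone and had to lean that way. On chromosome 4, OS04G0402500 and OS04G0403200 were both among the most abundant in nuclear RNA. On chromosome 3, OS03G0302200 (0.13) was not called beside OS03G0302700, one of the lowest of all. The neighbours were looked at after their values were seen.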

How the data were processed

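RNA of 8 libraries, 4 of nuclear RNA and 4 of poly(A) RNA, was measured as RPKM values per gene, deposited by the authors in 1 table whose columns name pool and replicate. The genome was IRGSP-1.0 and the tools TopHat2 2.1.1, CASAVA 1.8 and FastQC, per the submitters' processing notes. What counted the reads, with which strand setting and annotation, is not given in the sources used here, so overlapping, antisense and near-identical genes cannot be told apart. A nuclear sample of shoot bases was not analysed here. The table holds 35694 lines for 35664 identifiers, and repeated lines held equal values.

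From the deposited RPKM values, whole reads were recovered for all 33191 genes above 0 (tolerance 0.001 reads) and used for depth, voom and thinning only. The main test, chosen because RPKM values are not counts, was limma 3.58.1 (lmFit and eBayes, R 4.3.3, two-sided) on log2(RPKM + 1), restricted to the 26928 genes whose mean reached 1 RPKM in either pool. P-values were adjusted by Benjamini-Hochberg over all of these, and genes were called at an adjusted p under 0.05. Fold changes on this scale understate the change of low genes. The procedure was tested on simulated data. Tables were joined in Python 3.11.15. Sums of recovered reads carry counting error beside the spread between libraries. Libraries of a pool differed by more than counting noise and were kept apart.

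Members and lists were chosen with earlier results of these data known. Genes named by rule were the 8 largest positive and 8 largest negative differences among called members with pools apart, the 6 highest members of each pool, the 4 smallest differences among the 50 highest, the highest of each wording class, known symbols, and the 3 genes on each side of the level. Ubiquitin pathway lists were made from words of the descriptions, and pathway genes named as examples were chosen after their values were seen. Alternatives were other pseudocounts, filters, scalings, tools and levels, the length trend, a replicate block and leaving out each library. Wordings of the member rule were added after seeing the data.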

Additional observations from a re-analysis of the deposited data

Results flagged for a closer look

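Single libraries stood apart from the other 3 of their pool in 5 of 80 sets of 4 libraries of named genes, and chance gives about 1 in 20. OS05G0526600 had 35.1 RPKM in nuclear replicate 4, against 22.8 to 23.1 RPKM in the other nuclear libraries. OS01G0673900 had 3.34 RPKM in nuclear replicate 2 and 0 in the other nuclear libraries, and 8.93 RPKM in poly(A) replicate 1, against 10.0 to 10.2 RPKM in the other poly(A) libraries. OS01G0719100 had 31.4 RPKM in nuclear replicate 4, against 18.8 to 19.6 RPKM in the others. HTAS (OS09G0323100) had 5.31 RPKM in nuclear replicate 1, against 4.14 to 4.19 RPKM in the others.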

How the results depend on the processing

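The median difference of the RING finger genes was 0.444 with libraries rescaled to an equal sum, 0.481 with the 100 highest genes left out of that sum, 0.04 after median centring and 0.109 with the length trend taken off. With a mean of 5 RPKM asked for in both pools 52 genes were higher, and with it asked for in poly(A) RNA 52 were higher and the median was −0.125, since genes above the level in nuclear RNA alone are then left out. Without the RING/FYVE/PHD-type genes 32 of 66 were higher (48.5%) and 14 lower (21.2%), with a median of 0.849. Among all genes with a larger pool mean of 5 RPKM or more 36.7% were higher and 35.0% lower. Leaving out single libraries gave 77 to 91 higher, 50 to 67 lower and medians of 0.179 to 0.244. A replicate block gave 79 higher and 59 lower. Same-numbered libraries did not visibly deviate together (r = −0.000321, 0.00649, −0.0606 and −0.0409), and libraries of unlike numbers gave −0.0939 to 0.0732. Low nuclear depth could hide a weak pairing, so this check cannot exclude one. Of 800 values for 40 named genes under 20 alternatives, 745 kept their direction and side of the threshold, 14 gained a call, 11 lost one and 30 changed sign, all of them genes not called. Rescaling to an equal sum gave 0.2048 for OS03G0818300, 0.1996 for OS08G0421900, 0.1823 for OS03G0427900, 0.0681 for GW2 (OS02G0244100) and 0.0143 for RDCP1 (OS04G0530500), and leaving out the 100 highest genes 0.2431, 0.2373, 0.22, 0.1035 and 0.0512 in the same order and 0.0308 for OS04G0568900. Median centring gave −0.0962 for OS03G0812200 and −0.0208 for OS01G0719100 and HAC701 (OS01G0246100), and quantile normalization 0.0662 for OS03G0818300 and −0.0802 for HAC701. Thinning poly(A) reads gave 0.2722 for OS08G0421900 and −0.115 for OS03G0812200. With the length trend taken off, values were 0.183 for OS03G0818300, 0.3922 for OS08G0421900, −0.2923 for OS01G0719100, −0.343 for OS03G0304400 and −0.5606 for HAC701 (adjusted p = 0.0121). Leaving out single libraries, of which nuclear replicates 1, 3 or 4 turned the sign, gave −0.0914 to 0.0361 for OS03G0818300 (turned without nuclear replicate 1), −0.1833 to 0.0601 for OS08G0421900 and −0.1341 to 0.0116 for OS03G0427900 (without nuclear replicate 3), and, turned without nuclear replicate 4, −0.0301 to 0.1473 for OS03G0812200, −0.0344 to 0.2302 for OS01G0719100, −0.3201 to 0.0103 for GW2 and −0.4203 to 0.1209 for RDCP1. The cause was not tested. Some of the members called lower rested on few nuclear reads, down to 3 for OS03G0302700.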
